A study of Sus scrofa with 6 samples.

Results

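The 53 genes described here encode glycosyltransferases and sulfotransferases, the enzymes that assemble the sugar chains of glycoproteins, glycolipids and proteoglycans. They were taken by symbol from a deposited expression table, as every row whose gene name began with GALNT, MGAT, FUT, CHST or ALG followed by a digit, or with B3GN, B3GAL, B4GAL, ST3GAL, ST6GAL, CHSY or EXT. This gave 53 of the 10915 genes with values. They were sorted by the step they serve, with 8 genes in the assembly of the lipid-linked oligosaccharide, 7 in N-glycan branching and core fucose, 6 in O-glycan initiation, 11 in chain extension and capping, 5 in glycolipid chains, 6 in sialylation and 9 in glycosaminoglycans. B3GNTL1 was given no step. The set is wider than the glycocalyx alone, since the ALG enzymes work in the endoplasmic reticulum on every N-glycoprotein of the secretory pathway.

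An N-glycan starts as an oligosaccharide built on the lipid dolichol by the ALG enzymes, is moved as a block onto an asparagine of the nascent protein, and is then rebuilt in the Golgi by the MGAT enzymes, which start its branches. A mucin-type O-glycan starts when a GALNT enzyme puts N-acetylgalactosamine on a serine or threonine, and is then lengthened and capped with fucose, sulfate or sialic acid. Together with glycolipids and heparan sulfate chains these glycans form the glycocalyx, the sugar coat of the uterine epithelium that an embryo meets first. Sperm and the exosomes of semen reach the same surface.

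The samples were primary cultures of endometrial epithelial cells at passage 3, prepared from pig uteri collected at a slaughterhouse. In the exosome group, 3 libraries came from cells that received 10 µg per well of vesicles precipitated from the sperm-rich fraction of boar semen, for 48 h. In the control group, 3 libraries came from cells without that treatment, and no label names a vehicle for them. The comparison asks which transcripts differ in these cells after contact with seminal exosomes. The values were read as FPKM, from the tool named in the processing notes and from the values, since no header states the unit. FPKM are fragments scaled to transcript length and to the number of mapped fragments, a scale that allows levels of different genes to be compared. No label says whether libraries of a group came from separate animals or wells, and all p-values here refer to the spread among 3 libraries a group, part of which can be technical. Exosome preparations were made from 3 samples of seminal fluid, per the labels' protocols, and no label ties a preparation to a library.

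The epithelial identity of the cultures was checked on 7 markers, of which 6 were listed. Keratin genes were abundant, with KRT8 between 2664 and 3083 FPKM over the 6 libraries. The summed FPKM of the 6 epithelial markers was 8919 to 9202 in the controls and 7885 to 8664 in the exosome libraries, so it was lower in every exosome library. The markers did not move alike, with log2 changes of -0.35 for CLDN4, -0.24 for ELF3, -0.13 for KRT19, -0.12 for KRT8, -0.04 for KRT18 and 0.05 for EPCAM. Among 6 stromal markers 3 were listed (COL1A1, COL1A2 and COL3A1), with sums of 51.2 to 88.3 FPKM in the controls and 46.1 to 72.4 in the exosome libraries. COL1A2 was the largest part of these sums, and the others varied widely within both groups. COL1A1 was at 2.48, 30.0 and 14.7 FPKM in the controls and 20.4, 6.27 and 0.887 in the exosome libraries. COL3A1 was at 0.239 to 1.93 and 0.114 to 2.05 FPKM. Leukocyte markers (2 of 4 listed, CD14 and CD68, the latter on a pair of rows that were both added) summed to 9.78 to 11.8 and 8.06 to 11.12 FPKM. KDR was the 1 of 4 endothelial markers listed, at 1.26 to 1.96 and 0.968 to 1.16 FPKM. The part of these differences in the results below was not tested. Over all genes, exosome replicate 2 lay nearer to the controls than to exosome replicates 1 and 3. The SD over genes of its log2 ratio was 0.244 and 0.251 to those libraries, and 0.231, 0.203 and 0.201 to control replicates 1, 2 and 3, where exosome replicates 1 and 3 were at 0.222 to each other. Over the 53 genes alone this separation was not seen for replicate 1, which was at 0.185 to exosome replicate 2 and 0.187 to exosome replicate 3. Exosome replicate 1 was there nearer to control replicates 2 and 3, at 0.175 and 0.148, than to either exosome library. Exosome replicates 2 and 3 were at 0.234 to each other, the largest value of any pair over these genes. Exosome replicate 2 is kept in the results, and results that rest on it are given with and without it.

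Most of the enzymes listed were expressed at moderate levels. Of all genes with values, 99.4% were at or above 1 FPKM, so enzymes at low levels may be missing from the deposited rows. Mean FPKM over the 6 libraries ran from 1.35 for ST3GAL-III to 403 for B4GALT5, with a median of 15.3, beside 14.8 for all genes. At or above 10 FPKM were 37 of the 53 genes (69.8%, beside 61.6% of all genes), and 6 were at or above 100 FPKM. These 6 were B4GALT5, B3GNT3, GALNT1, MGAT4B, EXT1 and GALNT3, and together they held 52.5% of the FPKM of the set. B4GALT5 stood clear of the others in every library. B3GNT3, GALNT1, MGAT4B, EXT1 and GALNT3, with means from 123 to 150 FPKM, overlapped each other between neighbours in this order. FUT8 followed at 74.9 FPKM, below every library of GALNT3, and then ALG5 at 60.5 and B4GALT1 at 59.3, which overlapped.

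No gene of the set passed the test of exosome against control. In limma, with p-values adjusted by the Benjamini-Hochberg method across all 10846 genes, 0 of the 53 lay under an adjusted p of 0.05 (range 0.234 to 0.998), and 0.0% of all genes did. At an unadjusted p under 0.05, 6 genes of the set (11.3%) were lower in the exosome libraries, where 7.5% of all genes were, and 1 (1.89%) was higher, where 5.06% were. The exosome libraries lay below all control libraries in 7 genes of the set (13.2%, beside 10.4% of all genes) and above them in 1 (1.89%, beside 8.29%). These shares lie close to the background, and the lower side outnumbers the higher. A negative log2 change was found in 37 genes of the set (69.8%, beside 50.8% of all genes), and the median log2 change was -0.05, beside -0.0023 over all genes. The balance of directions over all genes depended on scaling, and that of the set moved little. With upper quartile scaling 5 genes of the set were lower and 1 was higher at that threshold, while 5.32% of all genes were lower and 7.4% higher, and the median of the set was -0.03. With that scaling 34 of the 53 genes had a negative log2 change, beside 42.5% of all genes. With quantile normalization these counts were again 5 and 1, beside 6.51% and 6.0% of all genes. Over all genes, 549 were higher and 813 lower at that threshold as deposited, 803 and 577 with upper quartile scaling, and 651 and 706 with quantile normalization. In bulk RNA, fewer cells of a type and less RNA per cell cannot be told apart.

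**Figure D1:**
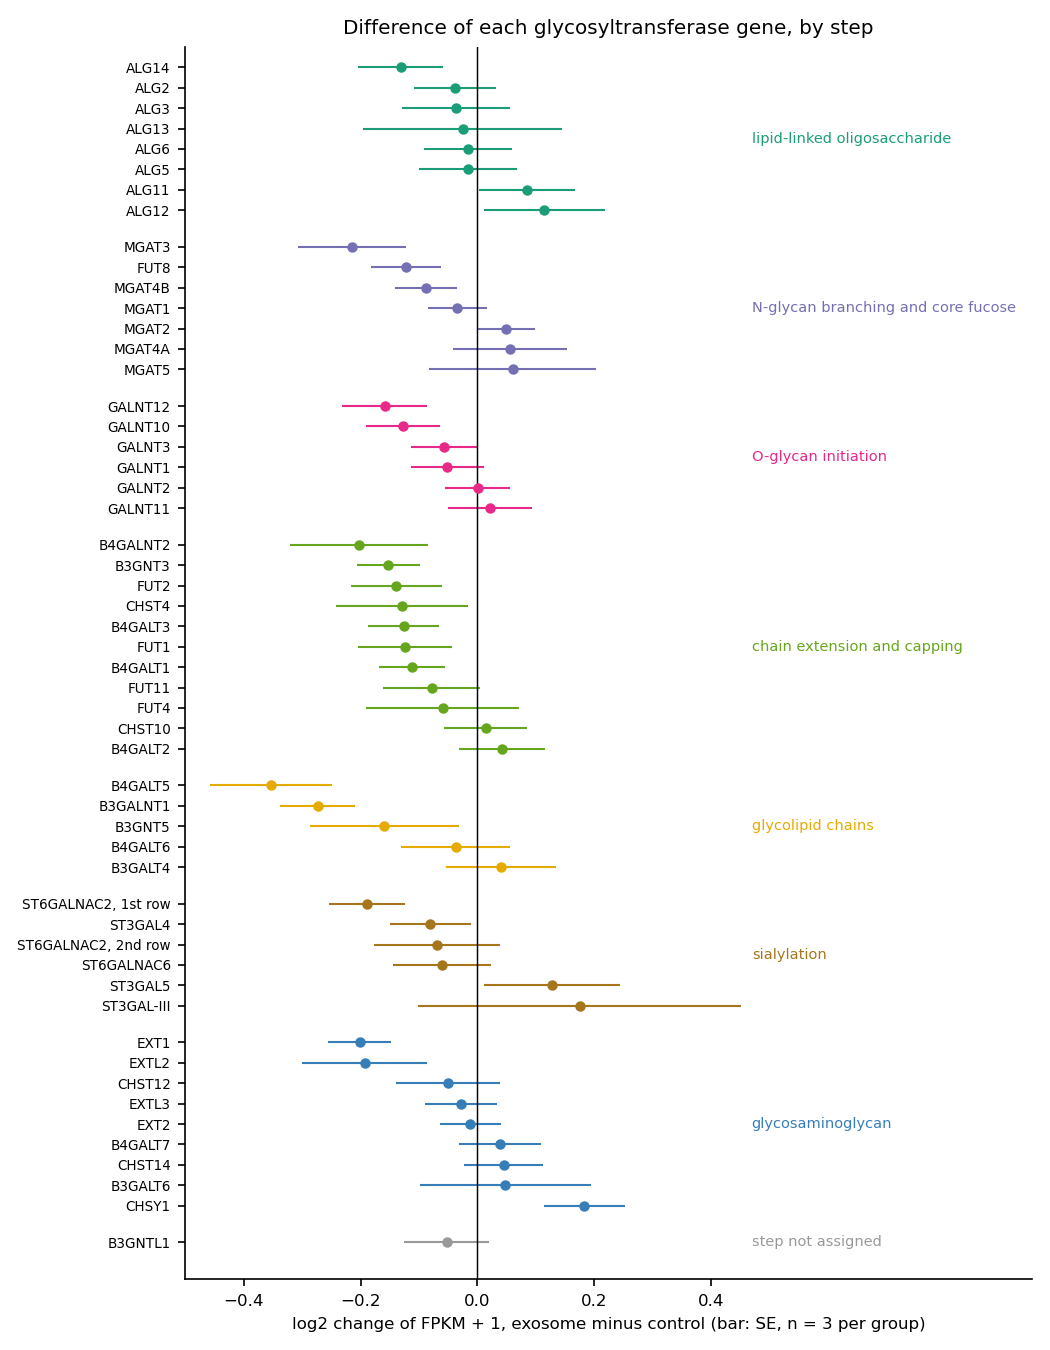
Log2 change of each of the 53 genes (exosome minus control, on log2 of FPKM + 1), grouped and coloured by step; points are limma estimates and bars their SE (n = 3 per group). B4GALT5 at -0.35 lies farthest to the left, and CHSY1 at 0.18 is the highest gene whose groups do not overlap; the 1st row of ST6GALNAC2 is ENSSSCG00000017177 and the 2nd ENSSSCG00000005628.

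The assembly line of the lipid-linked oligosaccharide differed little between the groups. Its 8 genes had a median log2 change of -0.02, a range from -0.13 to 0.11, and none at an unadjusted p under 0.05. ALG5, which makes the dolichol-linked glucose donor and was the most abundant of them, was at 59.1, 59.8 and 63.3 FPKM in the controls and at 66.3, 52.8 and 61.9 in the exosome libraries. The exosome libraries of ALG5 lay on both sides of the controls, and the log2 change was -0.02 (95% interval -0.21 to 0.18). ALG14, which with ALG13 adds the second N-acetylglucosamine, was the 1 gene of this step whose groups did not overlap. It was at 5.32, 4.89 and 5.17 FPKM in the controls and 4.56, 4.78 and 4.43 in the exosome libraries (log2 change -0.13, SE 0.07, limma unadjusted p = 0.111). Its partner ALG13 ranged over 8.11 to 13.0 FPKM in the controls and 8.42 to 11.5 in the exosome libraries, a wide spread within both groups. The mannosyltransferases ALG2, ALG3, ALG11 and ALG12 had log2 changes of -0.04, -0.04, 0.08 and 0.11, and the glucosyltransferase ALG6 had -0.02. The summed level of the 8 genes was 130.3 ± 3.22 FPKM in the controls and 129.3 ± 5.77 in the exosome libraries (mean ± SD, n = 3; two-sided exact permutation p = 0.8).

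In N-glycan branching, MGAT3 was the 1 gene at an unadjusted p under 0.05. MGAT3, which adds the bisecting N-acetylglucosamine that stops further branching, was at 36.6, 35.7 and 39.5 FPKM in the controls and 32.8, 27.8 and 35.8 in the exosome libraries. Exosome replicate 3 lay just above control replicate 2, so the groups overlapped, and exosome replicate 2 was the lowest library. The log2 change was -0.22 (SE 0.09, limma adjusted p = 0.393, unadjusted 0.0488), and -0.12 without exosome replicate 2. MGAT3 was not under an unadjusted p of 0.05 without the intensity trend, with quantile normalization or with upper quartile scaling. With 1 library left out, it was under that threshold only without exosome replicate 3.

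MGAT4B, 1 of a pair of enzymes that start the same additional branch, carried 50.6% ± 0.429 of the MGAT transcripts in the controls and 49.8% ± 1.38 in the exosome libraries (mean ± SD, n = 3; two-sided exact permutation p = 0.4). It was at 142, 140 and 143 FPKM in the controls and 127, 130 and 143 in the exosome libraries, with exosome replicate 3 at the control level and the other two below it. Its homologue MGAT4A was at 11.3 ± 1.42 and 11.8 ± 0.829 FPKM. FUT8, which puts fucose on the core of the N-glycan, was at 78.1 ± 4.34 and 71.7 ± 3.49 FPKM (log2 change -0.12, limma adjusted p = 0.445). MGAT1, the entry to all complex N-glycans, differed by a log2 change of -0.03 (95% interval -0.15 to 0.08). MGAT5, the enzyme of a further branch, was at 6.39 ± 1.19 and 6.68 ± 1.06 FPKM. The row named MGAT2, at 37.3 ± 0.689 and 38.7 ± 1.22 FPKM, has an identifier that the reference table lists under RPL36AL, the neighbouring gene in that table, so its value is uncertain between them. The 7 genes together had a median log2 change of -0.03. Their summed level was 358 ± 6.72 FPKM in the controls and 339 ± 8.81 in the exosome libraries, with no overlap (two-sided exact permutation p = 0.1, the smallest that 3 against 3 allows). As a share of the FPKM of the set they made up 16.5% ± 0.180 and 17.1% ± 0.653, and the groups overlapped (two-sided exact permutation p = 0.2).

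O-glycan initiation rested on GALNT1 and GALNT3 in both groups. GALNT1 was at 139, 147 and 151 FPKM in the controls and 136, 152 and 134 in the exosome libraries, and GALNT3 at 124, 126 and 126 and then 127, 112 and 123. Exosome replicate 2 held the highest GALNT1 and the lowest GALNT3 of the 6 libraries. The ratio of GALNT1 to GALNT3 was 1.37 in that library, 1.07 and 1.09 in exosome replicates 1 and 3, and 1.12 to 1.21 in the controls. GALNT1 made up 35.2% ± 0.851 of the transcripts of the 6 GALNT genes in the controls and 35.3% ± 2.32 in the exosome libraries (mean ± SD, n = 3; two-sided exact permutation p = 1).

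GALNT12 was the 1 enzyme of this step whose groups did not overlap. It was at 34.4, 37.9 and 33.9 FPKM in the controls and 33.4, 28.9 and 32.6 in the exosome libraries, with exosome replicate 1 close under the lowest control (log2 change -0.16, SE 0.07, limma adjusted p = 0.414). Without exosome replicate 2, its lowest library, the log2 change was -0.098. GALNT10 was at 26.6 ± 0.350 and 24.3 ± 1.803 FPKM, and its log2 change of -0.13 became -0.18 without exosome replicate 2. GALNT2, a broadly active initiating enzyme, was at 52.9 ± 1.74 and 52.96 ± 2.67 FPKM, a log2 change of 0.00049 (95% interval -0.13 to 0.13). GALNT11 had a log2 change of 0.02. The summed FPKM of the 6 enzymes was 414.7 ± 8.20 in the controls and 399 ± 3.66 in the exosome libraries (two-sided exact permutation p = 0.1, the smallest possible). Their share of the FPKM of the set went the other way, at 19.1% ± 0.141 and 20.2% ± 0.718, and was higher in every exosome library (p = 0.1 by the same exact test). The sum over all genes was also lower in every exosome library. The FPKM of the set, against which the share is taken, include B4GALT5, at 451 ± 37.0 in the controls and 355 ± 52.2 in the exosome libraries. The mean share was higher in the exosome libraries for every step except glycolipid chains, so the higher share is not particular to O-glycan initiation. GALNT7 and GALNT6 carry these names only in the reference table and lie outside the set. GALNT7 was at 19.0 ± 0.539 and 21.7 ± 2.00 FPKM (log2 change 0.18, limma adjusted p = 0.389), and GALNT6 at 1.69 ± 0.294 and 1.38 ± 0.167.

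**Figure D2:**
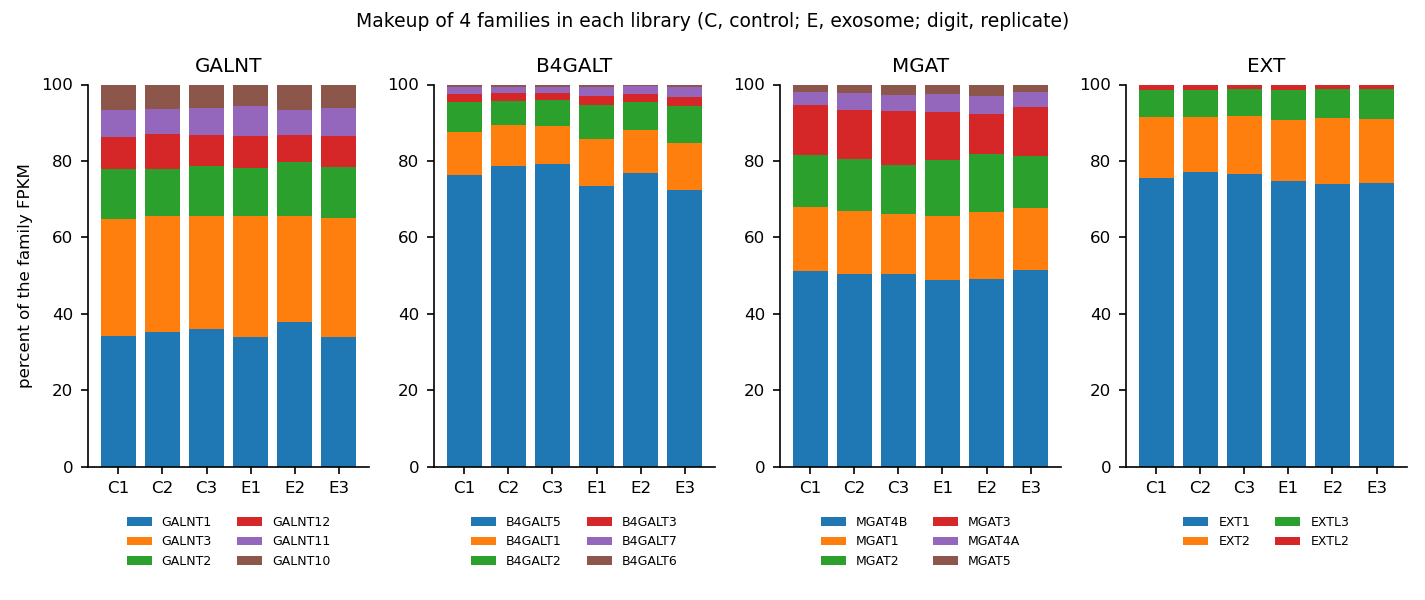
Makeup of the GALNT, B4GALT, MGAT and EXT families in each library, as the percent of the summed FPKM of the family held by each gene (C, control; E, exosome; the digit is the replicate). GALNT1 and GALNT3, B4GALT5, MGAT4B and EXT1 are the largest parts of their families in all 6 libraries. Only genes of the set are counted, so B4GALT4, GALNT6 and GALNT7 are left out, and the row named MGAT2 is included although its identity is uncertain.

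Among the enzymes that extend and cap glycan chains, 9 of 11 (81.8%, beside 50.8% of all genes) had a negative log2 change, and the median was -0.12. The median was -0.059 without exosome replicate 1 and -0.077 without exosome replicate 3. B3GNT3, which extends core O-glycans with N-acetylglucosamine and was the most abundant gene of this step, was at 157, 160 and 156 FPKM in the controls and 135, 152 and 139 in the exosome libraries. All exosome libraries lay under all control libraries, with exosome replicate 2 nearest to them (log2 change -0.15, SE 0.05, limma adjusted p = 0.336). B3GNT3 was also the 1 gene of this step at an unadjusted p under 0.05. With 1 library left out, B3GNT3 stayed under that limma threshold only without exosome replicate 2. The summed level of the 11 genes was 413 ± 1.43 FPKM in the controls and 383 ± 25.1 in the exosome group, where replicate 2, at 410.6, lay just under the lowest control (two-sided exact permutation p = 0.1, the smallest possible). Their share of the FPKM of the set was 19.0% ± 0.581 and 19.3% ± 0.545, with overlap (exact permutation p = 0.5).

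Galactose is added to N-acetylglucosamine by B4GALT1, B4GALT2 and B4GALT3. B4GALT1 was at 61.6 ± 0.989 FPKM in the controls and 57.0 ± 3.58 in the exosome libraries, and exosome replicate 2 overlapped the controls. B4GALT3 was at 11.7, 12.03 and 11.2 FPKM in the controls and 10.3, 10.8 and 10.6 in the exosome libraries, with no overlap (log2 change -0.13, SE 0.06, limma adjusted p = 0.429). B4GALT2 was at 39.8 ± 3.38 and 41.0 ± 2.16 FPKM. Outside the set, B4GALT4, named by the reference table, was at 23.7 ± 0.660 and 23.5 ± 2.02 FPKM, and B3GNT2, which elongates chains of repeated N-acetyllactosamine, was abundant at 136 ± 6.64 and 126 ± 8.68 FPKM.

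Fucose is added to the chain end by FUT1 and FUT2, which make the H antigen, and by FUT4, which makes Lewis x. FUT2 was at 42.5 ± 1.52 and 38.6 ± 3.96 FPKM and FUT1 at 10.7 ± 0.295 and 9.76 ± 0.972 FPKM. Both had their lowest value in exosome replicate 1, at 34.3 and 8.66 FPKM. FUT1 and FUT2 lie 4 places apart in the order of protein-coding genes of the reference table. Their ratio, FUT2 over FUT1, stayed between 3.88 and 4.08 in all 6 libraries. B4GALNT2, which makes the Sda antigen, was low at 4.01 ± 0.267 and 3.38 ± 0.638 FPKM.

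FUT4 and CHST4 differed more among the exosome libraries than between the groups. FUT4 was at 19.3, 19.2 and 19.6 FPKM in the control, and at 15.7 and 17.2 in exosome replicates 1 and 3 but 23.6 in exosome replicate 2. CHST4, which sulfates N-acetylglucosamine on mucin-type ligands of selectins, was at 35.1, 34.7 and 33.4 FPKM in the control, at 28.7 and 28.0 in exosome replicates 1 and 3, and at 38.4 in replicate 2. In both genes exosome replicate 2 was the highest of the 6 libraries, while exosome replicates 1 and 3 were the lowest. FUT11 followed the same order at 13.5, 16.6 and 13.96 FPKM in exosome replicates 1 to 3, beside 15.3 to 15.7 in the controls. CHST10, the sulfotransferase of the HNK-1 epitope, was at 15.3 ± 1.000 and 15.4 ± 0.889 FPKM.

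The largest difference of the set was found in enzymes of glycolipid chains. B4GALT5, which with B4GALT6 makes lactosylceramide, the root of most glycosphingolipids, was at 413, 455 and 486 FPKM in the controls and 329, 415 and 321 in the exosome libraries. Exosome replicates 1 and 3 lay far below all controls, and replicate 2 lay just above the lowest control. The log2 change was -0.35 (SE 0.10, limma adjusted p = 0.290). B4GALT5 held 20.7% ± 1.15 of the FPKM of the set in the controls and 17.9% ± 1.96 in the exosome libraries (mean ± SD, n = 3; two-sided exact permutation p = 0.2). Without it, the summed FPKM of the set was 1722 ± 22.5 and 1625 ± 28.8, with no overlap between the groups (exact permutation p = 0.1, the smallest possible). The sum over all genes also did not overlap, at 728438 ± 6270 and 703263 ± 11360 FPKM. Set against that sum, the 53 genes made up 0.298% ± 0.00998 in the controls and 0.281% ± 0.00871 in the exosome libraries, and the groups overlapped (two-sided exact permutation p = 0.2).

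B3GALNT1, which completes globoside from the globo-series precursor, had the smallest p of the set. It was at 33.8, 32.8 and 32.2 FPKM in the controls and 26.1, 29.5 and 25.8 in the exosome libraries. All 3 exosome libraries lay below all controls (log2 change -0.27, SE 0.06, 95% interval -0.42 to -0.12, limma adjusted p = 0.234, unadjusted 0.00291). B3GNT5, which starts lacto-series glycolipids, was at 30.4, 32.8 and 32.9 FPKM in the control, and at 27.8, 35.3 and 23.7 in the exosome libraries. As in FUT4 and CHST4, exosome replicate 2 was above and exosome replicates 1 and 3 were below all controls. B4GALT6 was at 3.09 ± 0.196 and 2.99 ± 0.330 FPKM. The ratio of B4GALT5 to its homologue B4GALT6 was 144 to 149.9 in the controls, and 99.0, 156 and 108 in exosome replicates 1, 2 and 3. B3GALT4, which acts in ganglioside synthesis, was at 5.27 ± 0.0330 and 5.47 ± 0.727 FPKM. The 5 genes summed to 525 ± 37.7 and 419 ± 59.6 FPKM, with overlap through exosome replicate 2 (two-sided exact permutation p = 0.2).

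**Figure D3:**
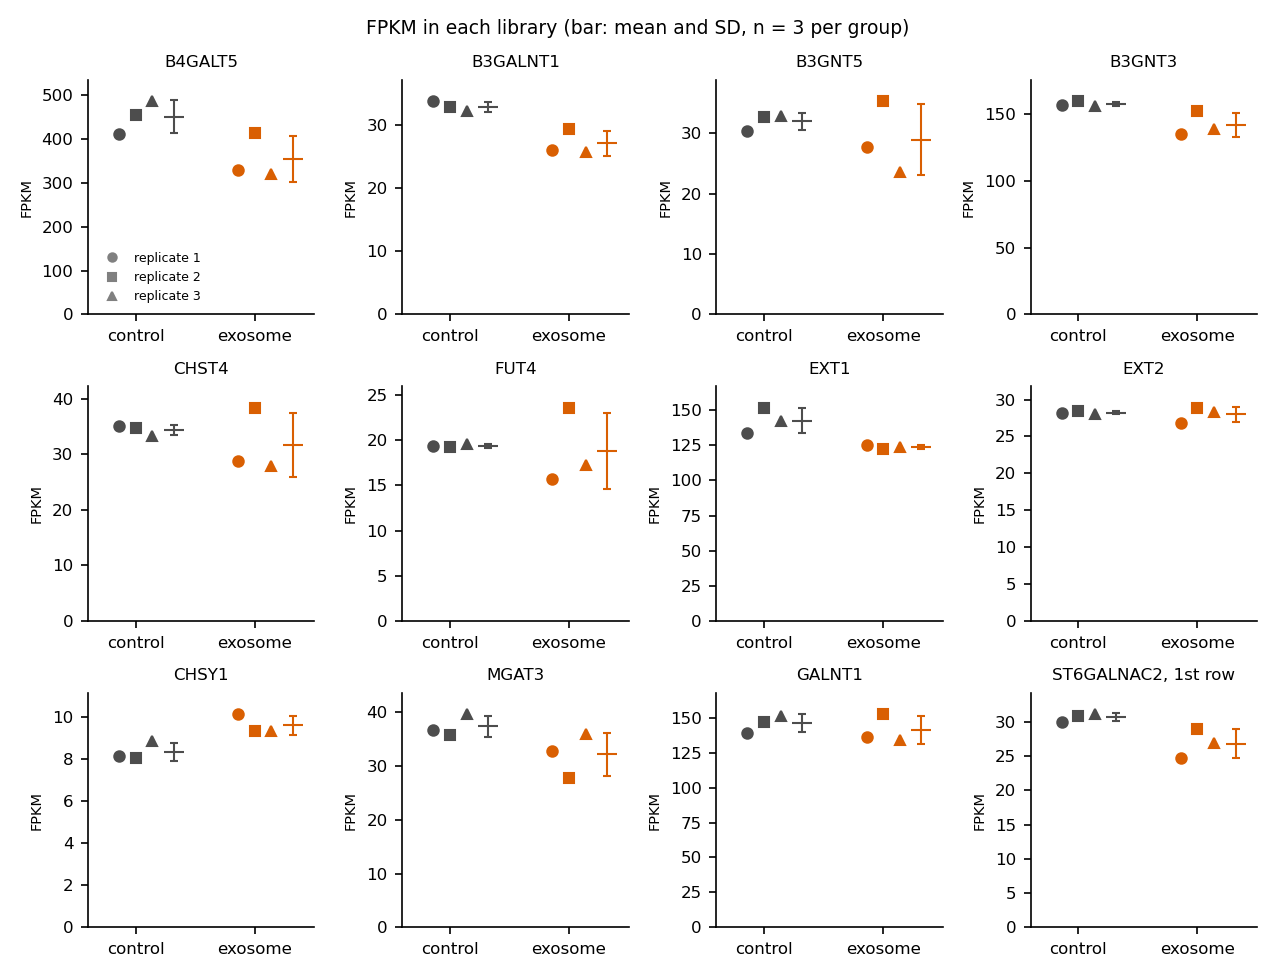
FPKM of 12 genes of the set in each library, with the mean and SD of each group beside the points (n = 3; the marker shape gives the replicate; every axis starts at 0). B3GALNT1, B3GNT3, EXT1 and ST6GALNAC2 (1st row, ENSSSCG00000017177) are lower and CHSY1 is higher in all exosome libraries, while B3GNT5, CHST4, FUT4 and GALNT1 have exosome replicate 2 (square) above and the other exosome libraries below the controls.

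Sialylation genes showed no common direction. The table held ST6GALNAC2 on a pair of rows. The row with identifier ENSSSCG00000017177, an enzyme that adds sialic acid to the N-acetylgalactosamine of O-glycans, was at 30.0, 30.9 and 31.1 FPKM in the controls and 24.8, 28.9 and 26.9 in the exosome libraries. These groups did not overlap (log2 change -0.19, SE 0.07, limma adjusted p = 0.333). This row was not under an unadjusted p of 0.05 in limma without control replicate 2, control replicate 3 or exosome replicate 1. The row with identifier ENSSSCG00000005628 is listed as ST6GALNAC4 in the reference table, where ST6GALNAC4 is the neighbour of ST6GALNAC6. It was the most abundant gene of the step, at 45.5, 41.3 and 44.1 FPKM in the controls and 40.8, 35.7 and 49.2 in the exosome libraries, which held both the lowest and the highest value. ST6GALNAC6, which acts on gangliosides, was at 11.7 ± 0.493 and 11.2 ± 1.19 FPKM. Sialic acid on terminal galactose is added by ST3GAL4, at 7.87 ± 0.447 and 7.38 ± 0.249 FPKM, and by ST3GAL-III, listed near the lower limit of the test at 0.502 to 2.17 FPKM in the controls and 1.11 to 2.15 in the exosome libraries. ST3GAL5, which makes the ganglioside GM3 from lactosylceramide, was at 1.53 ± 0.323 and 1.76 ± 0.138 FPKM. The median log2 change of the 6 genes was -0.06, and 0.03 without exosome replicate 2.

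In heparan sulfate synthesis, EXT1 was lower in all exosome libraries while its partner EXT2 was not. EXT1 and EXT2 form the polymerase that lengthens the heparan sulfate chain. EXT1 was at 134, 152 and 142 FPKM in the controls and at 125, 122 and 124 in the exosome libraries, which lay close together below all controls (log2 change -0.20, SE 0.05, 95% interval -0.33 to -0.08, limma adjusted p = 0.267). The log2 change was -0.19 without exosome replicate 2, close to that with all libraries. EXT2 was at 28.2, 28.5 and 28.0 FPKM in the controls and 26.8, 28.9 and 28.3 in the exosome libraries (log2 change -0.01, 95% interval -0.13 to 0.11). The ratio of EXT1 to EXT2 was 4.75, 5.33 and 5.07 in the controls and 4.66, 4.23 and 4.38 in the exosome libraries. These ratios did not overlap, and the exact permutation p of 0.1 (two-sided) is the smallest that 3 against 3 allows. EXTL3, which starts the heparan sulfate chain, was at 13.1 ± 0.571 and 12.8 ± 0.393 FPKM, and EXTL2, a related enzyme, at 2.64 ± 0.296 and 2.19 ± 0.291.

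CHSY1, a polymerase of chondroitin sulfate, was the 1 gene of the set that was higher in all exosome libraries. It was at 8.12, 8.04 and 8.84 FPKM in the controls and 10.1, 9.34 and 9.33 in the exosome libraries (log2 change 0.18, SE 0.07, 95% interval 0.02 to 0.34, limma adjusted p = 0.352). The log2 change was 0.20 without exosome replicate 2, and ran from 0.15 to 0.22 with 1 library left out. CHSY1 was not under an unadjusted p of 0.05 in limma without control replicate 1, control replicate 2 or exosome replicate 1. The sulfotransferases of chondroitin and dermatan sulfate, CHST12 and CHST14, had log2 changes of -0.05 and 0.04. B4GALT7 and B3GALT6, which build the linker shared by heparan and chondroitin sulfate, had 0.04 and 0.05, and B3GALT6 ranged from 7.66 to 11.9 FPKM among the exosome libraries. Of the 9 glycosaminoglycan genes, 5 had a negative and 4 a positive log2 change, with a median of -0.01. Their sum of 229 ± 9.24 FPKM in the controls and 211 ± 3.42 in the exosome libraries did not overlap (two-sided exact permutation p = 0.1, the smallest possible). EXT1 was the largest part of it, at 142 ± 8.91 and 124 ± 1.43 FPKM. The mean of EXT1 alone fell by more than the mean of the sum, so the sum shows no fall shared by the step. As a share of the FPKM of the set, the 9 genes made up 10.5% ± 0.367 and 10.7% ± 0.484, with overlap (exact permutation p = 0.8).

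Exosome replicate 2 decided which of these genes passed. Without it, B4GALT5, B3GALNT1 and CHST4 were lower in the exosome group at limma adjusted p-values of 0.0273, 0.0292 and 0.0479, with log2 changes of -0.47, -0.33 and -0.27. No gene of the set passed as higher. These were 3 of 53 genes, where 1.88% of all genes passed as lower and 0.858% as higher without that library. Exosome replicate 2 was singled out on these same data, because over all genes it lay nearer to the controls than to the other exosome libraries. Leaving it out therefore favours larger differences, and 297 of all genes then passed, where 0 passed with all libraries. The adjusted p-values without it can be too small and are no independent test. B3GNT3 stood at 0.0530 and ST6GALNAC2 (ENSSSCG00000017177) at 0.0773. At an unadjusted p under 0.05, 12 genes were then lower (22.6%, beside 11.8% of all genes) and 1 higher (1.89%, beside 10.2%). Exosome replicates 1 and 3 both lay below all controls in 16 genes of the set (30.2%, beside 21.0% of all genes) and both above them in CHSY1 (1.89%, beside 19.9%). In 5 of those 16, B3GNT5, CHST4, FUT4, FUT11 and GALNT1, exosome replicate 2 lay above all controls. These 5 were 9.43% of the 53 genes, and 3.84% of all genes had this order. The opposite order was found in 0 genes of the set and in 4.57% of all genes. The spread (SD of FPKM) was larger in the exosome than in the control group for 38 of the 53 genes (71.7%, beside 66.4% of all genes).

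**Figure D4:**
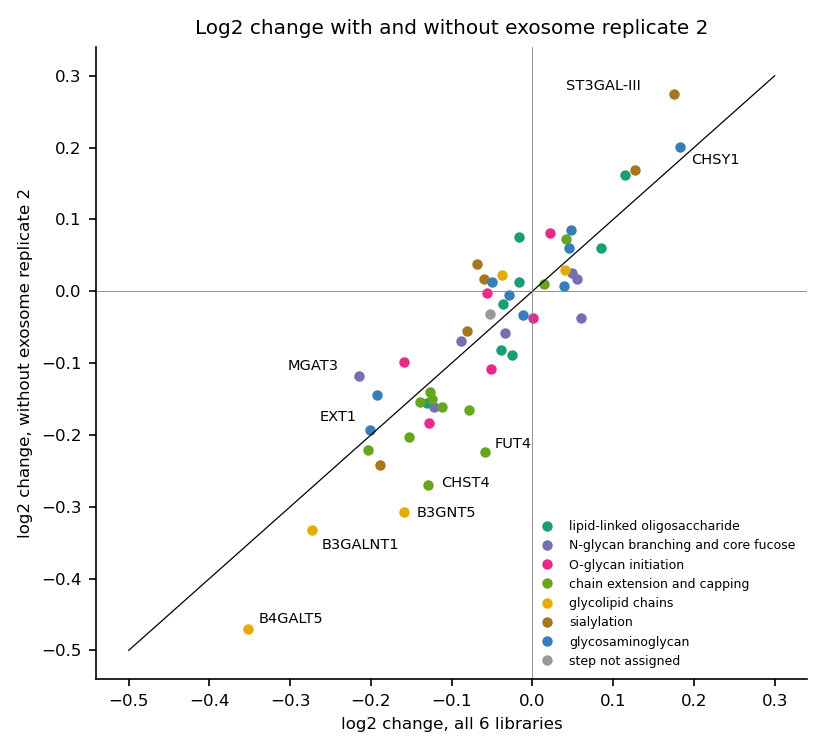
Log2 change of each gene of the set with all 6 libraries (x axis) and without exosome replicate 2 (y axis), coloured by step; the line marks equal values. B4GALT5 moves from -0.35 to -0.47, CHST4 from -0.13 to -0.27 and FUT4 from -0.06 to -0.22, while EXT1 and CHSY1 stay near the line.

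The median of the 53 genes was -0.08, -0.04 and -0.03 in exosome replicates 1, 2 and 3 relative to the control mean, below all controls (-0.0088 to 0.011). On the same scale, the glycolipid genes had medians of -0.20, -0.12 and -0.34 in exosome replicates 1, 2 and 3, and the controls ran from -0.07 to 0.04. The genes of chain extension and capping had medians of -0.22, -0.02 and -0.12, where the controls ran from -0.01 to 0.01. For O-glycan initiation the exosome medians were close together, at -0.07, -0.06 and -0.07, beside -0.01 to 0.03 in the controls. Lipid-linked oligosaccharide, N-glycan branching, sialylation and glycosaminoglycan medians overlapped between the groups.

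**Figure D5:**
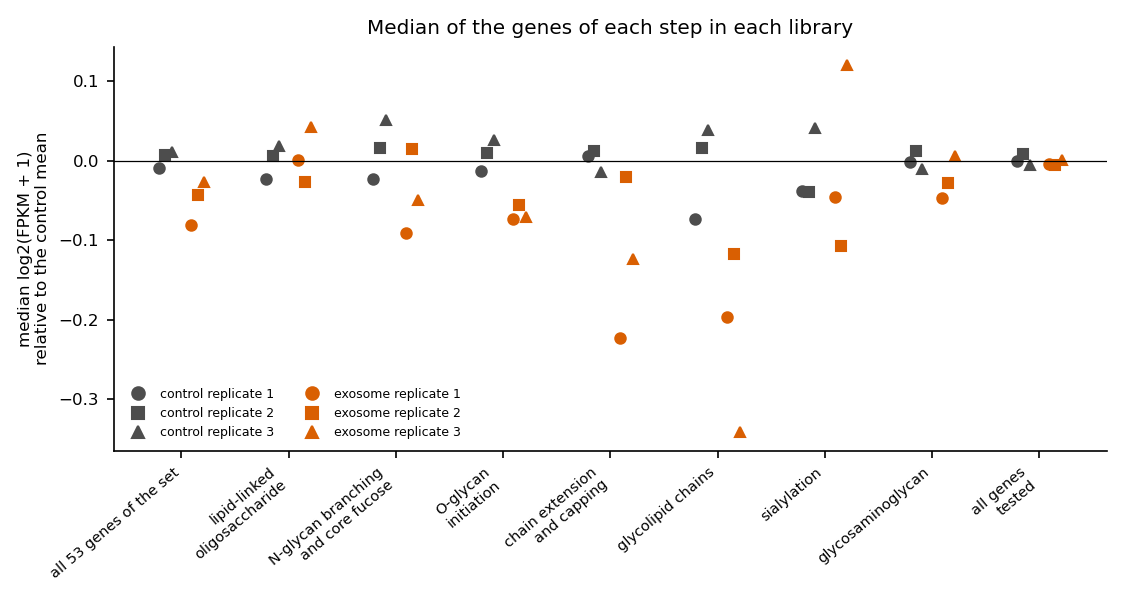
Median log2(FPKM + 1) of the genes of each step in each library, relative to the control mean of each gene, with all 53 genes and all genes tested for comparison. The exosome libraries lie below the controls for O-glycan initiation, chain extension and glycolipid chains, and overlap them for the other 4 steps.

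Other genes of these pathways were taken from 7 lists of 169 symbols, and 121 genes were found. In each list, 0 members passed the adjusted threshold of limma. At an unadjusted p under 0.05, 14 of the 121 genes of these lists (11.6%) were lower and 5 (4.13%) higher, beside 7.5% and 5.06% of all genes, and the genes named here are described without reading a change from them. Without exosome replicate 2, GCNT2, TUSC3 and CD24 were lower at limma adjusted p-values of 0.0412, 0.0350 and 0.0122, which is 2.48% of the list genes, beside 1.88% of all genes. These p-values can also be too small, since that library was singled out on these same data. The list of O-glycosylation held mucin-type branching enzymes (GCNT1 to GCNT4) and GALNTL2, and also enzymes of O-mannose (POMT1, POMT2, POMGNT1), O-fucose (POFUT1), O-glucose (POGLUT1) and single O-linked N-acetylglucosamine (OGT, MGEA5). Of its 12 genes, 2 (16.7%) were lower and 1 (8.33%) was higher at that threshold, beside 7.5% and 5.06% of all genes. GCNT2, which branches poly-N-acetyllactosamine chains, was at 7.09 ± 0.522 and 4.87 ± 0.606 FPKM with no overlap (log2 change -0.47, limma adjusted p = 0.206). GALNTL2, listed as GALNT15 in the reference table, was at 5.36 ± 1.52 and 3.40 ± 0.664 FPKM, and OGT, which attaches single N-acetylglucosamine residues to cytosolic and nuclear proteins, at 42.9 ± 2.91 and 49.6 ± 3.10. The most abundant gene of this list was POMGNT1, an enzyme of O-mannose glycans, at 70.1 ± 1.88 and 65.4 ± 1.66 FPKM.

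Among 20 partners of the lipid-linked oligosaccharide and of the oligosaccharyltransferase, which transfers it to protein, 2 (10%) were lower and 0 were higher at an unadjusted p under 0.05, beside 7.5% and 5.06% of all genes. TUSC3, a subunit of the oligosaccharyltransferase, was at 126 ± 3.12 and 105 ± 4.86 FPKM (log2 change -0.26, limma adjusted p = 0.189). DPAGT1, which starts the oligosaccharide on dolichol, was at 28.5 ± 0.709 and 25.7 ± 1.09, and RPN2, the most abundant subunit listed, at 411 ± 12.7 and 409 ± 17.6. In the trimming and quality control of N-glycans, 2 of 13 (15.4%) were higher and 1 (7.69%) was lower, against the same background. UGGT1 and UGGT2, the glucosyltransferases that tag misfolded glycoproteins, were at 28.3 ± 2.42 and 31.99 ± 1.42, and at 2.51 ± 0.196 and 3.25 ± 0.128 FPKM. NGLY1, which strips N-glycans from proteins in the cytosol, was at 44.9 ± 0.677 and 39.8 ± 3.67, and the chaperone CALR, the most abundant, at 967 ± 46.6 and 985 ± 72.6.

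Of 17 glycosaminoglycan partners, 1 (5.88%) was lower and 0 were higher at that threshold, beside 7.5% and 5.06% of all genes. HPSE, the heparanase that cuts heparan sulfate, was at 14.9 ± 1.04 and 11.9 ± 0.871 FPKM (log2 change -0.30, limma adjusted p = 0.251), and DSE, the epimerase of dermatan sulfate and the most abundant, at 71.9 ± 3.23 and 69.9 ± 5.59. Of 30 genes of nucleotide sugar supply, 3 (10%) were lower and 1 (3.33%) higher, near that background. PAPSS2, which makes the sulfate donor, was at 46.8 ± 3.88 and 37.5 ± 3.50 FPKM, GALT, of galactose metabolism, at 25.4 ± 1.19 and 21.7 ± 0.971, and SLC35C1, the Golgi carrier of GDP-fucose, at 7.79 ± 0.152 and 6.47 ± 0.292. MPI, which links fructose and mannose phosphates, was at 21.9 ± 1.36 and 25.6 ± 1.54, and UXS1, which makes the xylose donor, was the most abundant at 115 ± 5.05 and 109 ± 2.77. Of 20 cell-surface carriers of glycans, 3 (15%) were lower and 1 (5%) higher, beside the same 7.5% and 5.06%. MUC20, a membrane mucin, was at 157 ± 4.11 and 144.2 ± 6.97 FPKM, and HSPG2, the heparan sulfate proteoglycan perlecan, at 112 ± 5.42 and 129.6 ± 6.68 (log2 change 0.21, limma adjusted p = 0.278). MUC1 and CD24 were the other two lower ones, with log2 changes of -0.21 and -0.25, and CD24 was the most abundant. Of 9 genes of sialic acid and fucose removal and lectins, 2 (22.2%) were lower and 0 higher, beside the same 7.5% and 5.06%. FUCA1, the lysosomal fucosidase, was at 50.8 ± 0.8003 and 45.6 ± 0.817 FPKM, and LGALS3, the galactose-binding lectin galectin-3 and the most abundant of this list, at 3267 ± 77.7 and 2993 ± 186.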

How the data were processed

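RNA was sequenced from 3 control and 3 exosome libraries, with strand kept by the mRNA kit, per the labels' protocols. The tools named per the submitters' processing notes were bcl2fastq 1.8.4, TopHat and Cufflinks, and the build was Sscrofa11.1; for the annotation and the versions of the last 2 tools, the entry is "not given in the sources used here". Values deposited by the authors were read as FPKM, from the tool named and the values, since no header states the unit. No value was 0 and the lowest was 0.0882; the 69 genes under 1 FPKM gave 69 different ratios (to 4 decimals) between control replicates 1 and 2, with no steps of whole reads, so depth is unknown and no counting interval is given. All identifiers had numbers up to 31053, and 7494 of them, 43 of the 53 genes among these, were found in the reference table; no coordinates are given, because it is unsure that the files and that table share an annotation.

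Values were transformed as log2(FPKM + 1), which understates changes of low genes. Genes whose mean reached 1 FPKM, all 53 of the set among them, were tested with limma 3.58.1 in R 4.3.3 (intensity trend, two-sided, Benjamini-Hochberg adjustment over 10846 genes, threshold 0.05). The script was tested on simulated data with planted log2 changes of 1 in either direction. These were larger than any change of the set, so that test does not cover differences of the size described here. Intervals are unadjusted limma intervals. Sums, shares and ratios were compared with exact permutation tests (scipy 1.17.1). Figures were drawn with matplotlib 3.10.9. The 53 genes and the lists were chosen with earlier results of these data known. Every gene of the set could be named; library values were given for genes at an unadjusted p under 0.05 without overlap and for the most abundant gene of each step, and from the lists for up to 3 genes in each direction at an unadjusted p under 0.05 and the most abundant one; library values of other genes were added after their values were seen. The alternatives changed the pseudocount, the filter on low values, the scaling or the variance trend, added the replicate number as a block, or left out 1 library.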

Additional observations from a re-analysis of the deposited data

How the results depend on the processing

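The count of genes of the set past the adjusted threshold was 0 under every alternative run, except without exosome replicate 2 (3), so leaving out 1 library gave 0 to 3. Lower genes at an unadjusted p under 0.05 numbered 3 to 12 with 1 library left out (3 without control replicate 2 or 3, 12 without exosome replicate 2), and higher genes 0 to 1. B4GALT5, B3GALNT1 and EXT1 were among the lower genes in each of these fits. The other lower genes changed with the library left out. The higher gene, CHSY1, dropped to a count of 0 with the replicate number as a block. The count was also 0 without control replicate 1, control replicate 2 or exosome replicate 1. A count of 2 came from an alternative chosen after the data were seen. That alternative added genes named only by the reference table and left out those listed there under another symbol. Correlations of same-numbered deviations were 0.16, 0.14 and -0.07. Control replicates 1 and 2 correlated best with the exosome library of the same number, and control replicate 3 with exosome replicate 2 (0.17). With so few libraries, these values cannot settle whether the replicate numbers pair the libraries. Lower genes numbered 6 with the block.

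The median log2 change of the set stayed between -0.06 and -0.04 with 1 library left out. By step, these ranges were -0.034 to 0.0050 (lipid-linked oligosaccharide), -0.061 to -0.0058 (N-glycan branching), -0.074 to -0.039 (O-glycan initiation), -0.16 to -0.059 (chain extension), -0.31 without exosome replicate 2 to -0.038 without exosome replicate 3 (glycolipid), -0.11 to 0.027 (sialylation) and -0.033 to 0.018 (glycosaminoglycan). Upper quartile scaling gave 0.00080 for the lipid-linked oligosaccharide, -0.029 for O-glycan initiation (-0.026 with quantile normalization) and 0.012 for glycosaminoglycan genes, whose median was 0.039 with a filter at 5 FPKM. The summed FPKM differences (exosome minus control) ranged over -3.23 to 2.21, -23.1 to -14.3, -19.7 to -11.7, -43.3 to -18.8, -139.6 to -85.4, -10.8 to -3.02 and -21.6 to -12.5 in the same order of steps, and were 1.17 for the lipid-linked oligosaccharide and -8.165 for O-glycan initiation with upper quartile scaling. ALG5 turned from -0.02 to 0.0084 with that scaling and ran from -0.086 to 0.075 with 1 library left out, and ST6GALNAC2 (ENSSSCG00000005628) from -0.19 to 0.038. The cause of these shifts was not tested. With 3 libraries a group and unknown depth, differences of this size in low genes such as ST3GAL-III could not be resolved.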
